A study of Mus musculus with 21 samples.

Results

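The genes described here are the nuclear genes of mitochondrial complex I, taken as every mouse symbol that begins with Nduf and holds at least 10 counts summed over all 21 libraries. All 51 Nduf names listed met this minimum, out of 19860 genes that did so among 27179 genes listed. Members were chosen by symbol and selected on summed raw counts, and no difference between groups entered the choice, though the set was proposed with earlier results of these data known. They comprised 36 subunits of the complex (7 core and 29 accessory), 8 assembly factors named Ndufaf, and 7 other Nduf names. The minimum was far from every member, since the lowest totals were 768 counts for Ndufa12, 1288 for Ndufa4l2 and 1496 for Ndufaf6.

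mRNA was sequenced from cells of individual mice, which were captured on magnetic beads from enzymatically dissociated renal cortex by means of antibodies against nephrin, a protein of the podocyte slit diaphragm. All mice were wildtype C57BL/6J males. The groups were young mice of 4 months that had no treatment (n = 6), middle-aged mice of 19.5 months that had received saline (n = 7), and middle-aged mice of 19.5 months that had received MCC950 (n = 8), a small-molecule inhibitor of the NLRP3 inflammasome given at 10 mg/kg. Saline and MCC950 were injected intraperitoneally from 18 months of age for 6 weeks. The fraction is enriched for podocytes by a surface protein and is not a pure cell type, and the young mice received no injection, so age and injection cannot be told apart in comparisons with them. In bulk RNA, fewer cells of a type and less RNA per cell cannot be told apart either.

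Complex I (NADH:ubiquinone oxidoreductase) passes electrons from NADH to ubiquinone and pumps protons across the inner mitochondrial membrane. It is L-shaped, with a matrix arm that holds the flavin and the iron-sulfur clusters and a membrane arm that pumps protons. The core subunits carry out the reaction and are split between the nuclear and the mitochondrial genome, accessory subunits surround them, and assembly factors build the complex without staying in it. Proximal tubule cells are among the most mitochondria-rich cells of the kidney cortex.

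Libraries held between 27375870 counts in a young library and 84876399 in a saline library, of which 49.9 to 80.4% belonged to the mitochondrial genome. Young libraries were the shallowest, with 5804891 to 13269290 counts outside the mitochondrial genome against 14362648 to 28569185 in the middle-aged libraries. None of the 15 podocyte markers and none of the 12 proximal tubule markers was at 0 counts in any library. Levels are given as CPM, counts scaled by the library total (mitochondrial counts included) times a normalization factor of each library (TMM). They are not divided by gene length. Levels are therefore not compared between genes, other than between copies and their parents, where counts and counts per base are given.

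Promoter sequences of the members were searched for 4 short motifs of factors known to bind respiratory chain genes, in windows from 250 bases before to 50 bases after the RefSeq start site on GRCm38.p6. A window was found for 41 of the 51 members. Both strands were searched. The 10-base NRF1 motif, shown in capitals below, was in 9 of these 41 genes (22%), against 7.17% of 17492 protein-coding genes. The YY1 motif AAGATGGC was in 8 (19.5%) against 3.57%, the ERR motif AAGGTCA in 3 (7.32%) against 4.73%, and the ETS motif CCGGAAG in 6 (14.6%) against 12.9%. These shares describe letters in the windows and were not tested.

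The motif matches are shown for the members with the largest differences between MCC950 and saline, which are named with a test below. A link between motifs and differences was not tested. Each line below is 30 bases of the gene's strand, 5′ to 3′, with the match in capitals, and no match shown overlaps another. In the NRF1 lines of Ndufs6 and Ndufa6 the motif is on the opposite strand, so the capitals are its reverse complement. The NRF1 match of Ndufaf4 reads on both strands.
Ndufs6, NRF1 motif, chr13:73328479-73328508, minus strand: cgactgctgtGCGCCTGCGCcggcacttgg
Ndufs6, YY1 motif, chr13:73328433-73328462, minus strand: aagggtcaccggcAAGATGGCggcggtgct
Ndufc1, YY1 motif, chr3:51408915-51408944, minus strand: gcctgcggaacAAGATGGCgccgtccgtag
Ndufb4, NRF1 motif, chr16:37654540-37654569, minus strand: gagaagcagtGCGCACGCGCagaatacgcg
Ndufb4, NRF1 motif, chr16:37654428-37654457, minus strand: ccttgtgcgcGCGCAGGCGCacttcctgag
Ndufb4, NRF1 motif, chr16:37654371-37654400, minus strand: cctcatatccGCGCAGGCGCagatgtgcgc
Ndufb4, ERR motif, chr16:37654405-37654434, minus strand: tcctgagcctgAAGGTCAgactcgagaggg
Ndufa6, NRF1 motif, chr15:82354249-82354278, minus strand: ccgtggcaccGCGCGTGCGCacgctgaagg
Ndufaf4, NRF1 motif, chr4:24897960-24897989, plus strand: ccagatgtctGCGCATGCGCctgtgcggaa
Ndufb2, ERR motif, chr6:39592373-39592402, plus strand: ggagcagcagtAAGGTCAgccaagagcacc
Relative to the RefSeq start site, Ndufb4 held 3 NRF1 matches before it and Ndufs6 held an NRF1 match before and a YY1 match after it. GENCODE begins exon 1 of both genes farther upstream, so that 2 of the 3 NRF1 matches and the ERR match of Ndufb4 and both matches of Ndufs6 lie inside that exon. The windows of Ndufab1, Ndufb3 and Ndufb4b held none of the motifs, and Ndufb4c had no window.

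**Figure D1:**
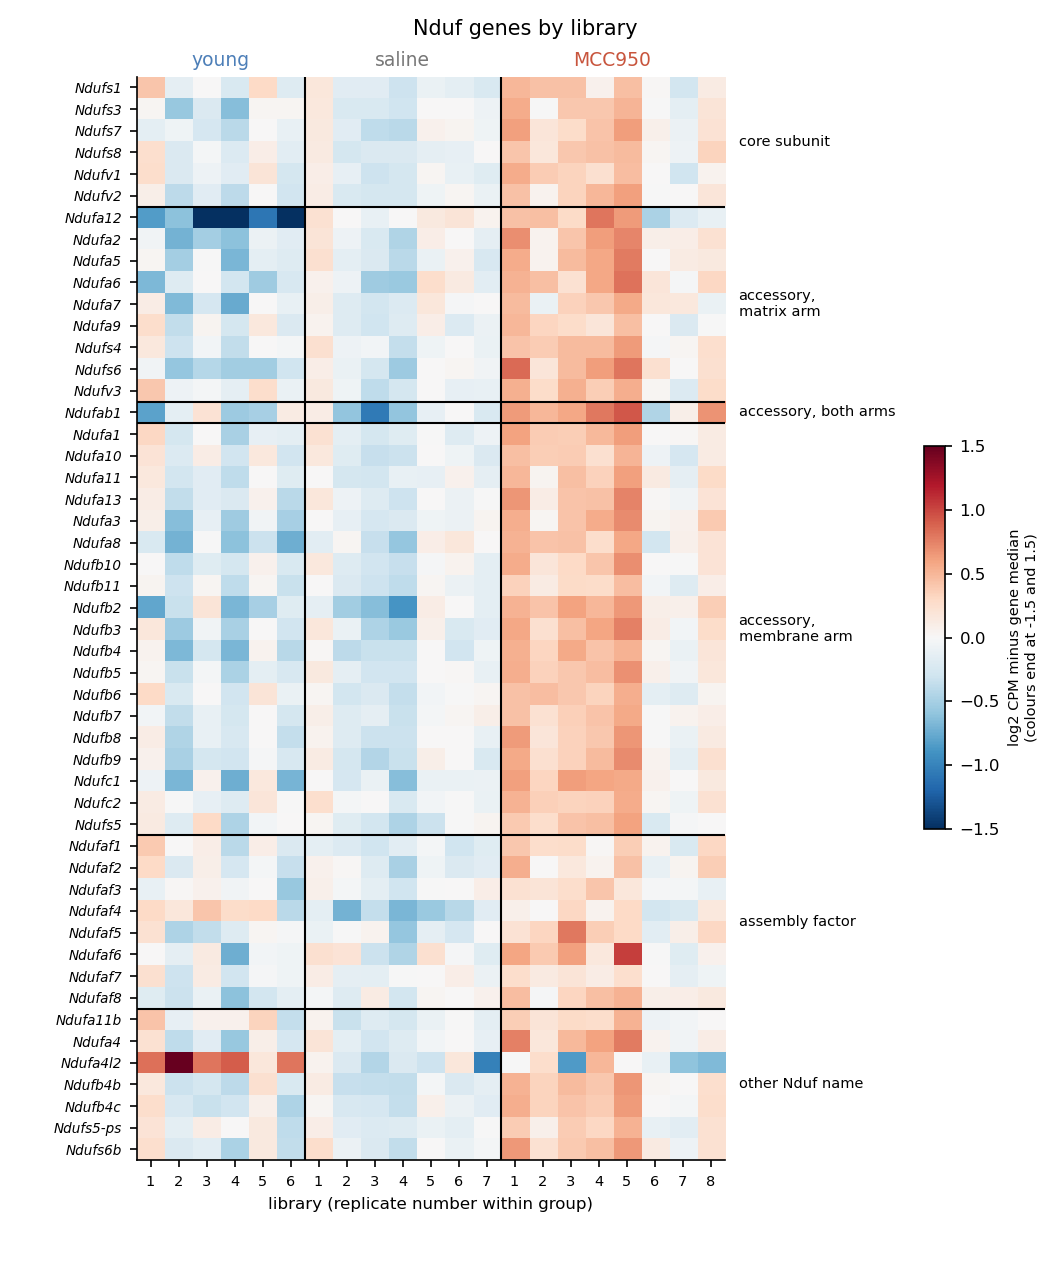
Heat map of the Nduf genes shown by name (rows, by role) in the 21 libraries (columns, by group and replicate number); colour is the log2 CPM minus the gene's median over all libraries. MCC950 replicates 1 and 5 are high across nearly all rows, MCC950 replicates 6 and 7 resemble saline libraries, and Ndufa12 and Ndufa4l2 are the rows in which the young libraries stand apart.

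The first comparison asked which of these genes differed between middle-aged saline-treated and young mice. Few did. Of 51 members, 1 passed as higher with age (Ndufa12) and 2 as lower (Ndufaf4 and Ndufa4l2), with significance set at 0.05 for the adjusted p. Among the 16377 genes tested 12.2% were higher, 12.4% lower and 24.6% called in either direction. The median log2 fold change was 0.04 over the members and 0.06 over the 36 subunits, against 0.02 over all genes tested.

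The 7 nuclear core subunits had log2 fold changes between -0.18 (Ndufs1, which carries iron-sulfur clusters of the matrix arm) and 0.11 (Ndufs3), and none passed the test. Ndufv1, the subunit that binds flavin and NADH, was at 66.9, 74.2 and 96.5 CPM (lowest, median and highest) in young libraries and at 65.2, 73.8 and 86.5 CPM in saline libraries. The ranges overlapped almost fully, with a log2 fold change of -0.09 ± 0.12 (SE) and a 95% interval from -0.34 to 0.17. The 19 membrane arm subunits lay between -0.14 and 0.32, and none passed the test either.

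Ndufa12, an accessory subunit of the matrix arm (chromosome 10, 94199035 to 94221440), was at 0.0364, 0.294 and 0.464 CPM in young libraries and at 0.66, 0.739 and 0.838 CPM in saline libraries. Every saline library was above every young library, as held for 4.51% of all genes tested and for no other member. The opposite order held for no member and for 4.87% of all genes. The log2 fold change was 1.41 ± 0.31 (adjusted p = 0.00233). These levels rest on 1 to 16 counts per young library and 28 to 65 per saline library, so Ndufa12 was not tested when at least 10 counts were required in every library.

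Ndufaf4, an assembly factor that acts early in building the matrix arm, was the only assembly factor of 8 that passed the test with age. It was at 12.6, 20.4 and 22.4 CPM in young libraries and at 10.2, 12.5 and 15.1 CPM in saline libraries. Only young replicate 6, at 12.6 CPM, reached into the saline range, and the next young library was at 18.8 CPM. The log2 fold change was -0.62 ± 0.13 (adjusted p = 0.00156). The other 7 assembly factors lay between -0.20 (Ndufaf1) and 0.23 (Ndufaf8).

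Ndufa4l2, a paralogue of Ndufa4 known as a gene induced by low oxygen, was at 1.29, 2.02 and 3.84 CPM in young libraries and at 0.568, 0.986 and 1.3 CPM in saline libraries. The highest saline library just reached the lowest young library. The log2 fold change was -1.20 ± 0.25 (adjusted p = 0.00138). Under the call rule of the study (a change over 2-fold and an unadjusted p of less than 0.05), which called 6.96% of all genes, Ndufa12 and Ndufa4l2 were the members called with age.

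Markers of several cell types moved with the same comparison. Of the 15 podocyte markers 14 were lower in saline than in young libraries. Their log2 fold changes had a median of -1.96, with summed levels of 883 to 1897 CPM in young and 356 to 620 CPM in saline libraries. The 12 proximal tubule markers had a median of -0.27, and none passed the test. Of the endothelial markers 8 of 9 were lower, of the mesangial and smooth muscle markers 6 of 7, of the collecting duct markers 4 of 8 and of the loop of Henle and distal tubule markers 2 of 8. Immune markers went the other way, with 2 of 7 macrophage, 3 of 5 T cell and 3 of 6 B and plasma cell markers higher. With the mean podocyte marker level as a covariate none of the 51 members was called with age, and the subunit median was -0.39. The log2 fold changes were then -0.54 for Ndufaf4 (adjusted p = 0.442), 0.90 for Ndufa12 (adjusted p = 0.535) and -0.62 for Ndufa4l2 (adjusted p = 0.615). That covariate separated the groups fully, with 4.84 to 6.01 on the log2 CPM scale in young and 2.92 to 4.09 in saline libraries. The fit can therefore hardly tell marker level from group, and the markers' part in the result was not tested.

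**Figure D2:**
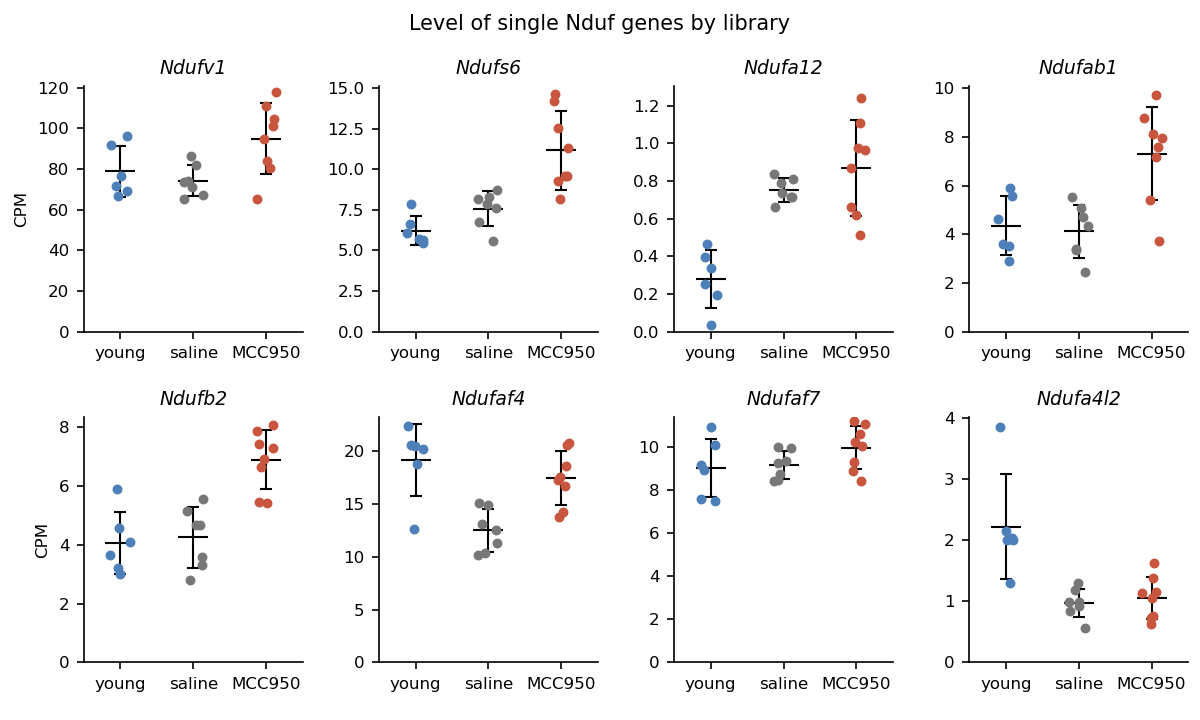
CPM of 8 Nduf genes in each library (points) with the group mean and SD (bars) for young (n = 6), saline (n = 7) and MCC950 (n = 8) mice; each axis starts at 0. Ndufv1, Ndufab1 and Ndufb2 are at like levels in young and saline mice and reach higher with MCC950. Ndufs6 is somewhat lower in young than in saline mice, with overlap, and highest with MCC950. Ndufaf4 is lower in saline mice than in both other groups, and Ndufa12 is lowest and Ndufa4l2 mostly highest in young mice.

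The second comparison asked which of these genes differed with NLRP3 inhibition at 19.5 months. By the same threshold 43 of 51 members rose with MCC950 and 0 fell, against 11.9% higher, 4.86% lower and 16.8% in either direction among all genes tested. All 51 fitted log2 fold changes were above 0, as for 8268 of the 16377 genes tested. The median was 0.41 over the members, 0.41 over the subunits and 0.36 over the assembly factors, and 0.003 over all genes tested. The changes were small, since no member passed the call rule of the study, by which 2.71% of all genes were called.

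The groups overlapped in every member. No member had all 8 MCC950 libraries above all 7 saline libraries, as 1.15% of all genes did, and none had all MCC950 libraries below, as 0.586% did. MCC950 replicates 1 and 5 exceeded the highest saline library in 50 of 51 members each, whereas MCC950 replicate 6 did so in 5 and replicate 7 in 2. MCC950 replicate 7 was the lowest MCC950 library in 32 members, and saline replicate 1 the highest saline library in 35. Leaving out 1 library moved the count of higher members from 43 to 24 without saline replicate 4, to 28 without saline replicate 3 and to 28 without MCC950 replicate 1.

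Of the 7 core subunits 6 were higher. Ndufv1 was at 65.2, 98.1 and 118 CPM in MCC950 libraries against the saline levels above, and 5 of 8 MCC950 libraries exceeded the highest saline library (0.35 ± 0.11, adjusted p = 0.0381). Ndufs7, which holds the last iron-sulfur cluster before ubiquinone, was at 18.8, 23.7 and 27.6 CPM in saline and 23.4, 29.4 and 38.3 CPM in MCC950 libraries, with 6 of 8 above the saline range (0.41 ± 0.11, adjusted p = 0.0158). Ndufs3 was the core subunit that did not pass, at 8.87, 10.4 and 12.1 CPM against 9.89, 13.5 and 16.1 CPM. Its 95% interval ran from 0.09 to 0.60.

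Of the 9 accessory subunits of the matrix arm 7 were higher. Ndufs6, a zinc-binding subunit, was at 5.59, 7.86 and 8.71 CPM in saline and 8.14, 10.5 and 14.6 CPM in MCC950 libraries. Of 8 MCC950 libraries 7 exceeded the highest saline library, and the log2 fold change was 0.56 ± 0.13 (1.47-fold, adjusted p = 0.00761). Ndufa6 was at 8.56, 12 and 15.1 CPM against 12.4, 16.4 and 22.1 CPM, with 5 of 8 above the saline range (0.50 ± 0.14, adjusted p = 0.0178). Ndufa7 and Ndufa12 did not pass, with 95% intervals from 0.05 to 0.58 and from -0.31 to 0.72.

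Ndufab1, the mitochondrial acyl carrier protein that sits in both arms of the complex and also serves fatty acid and lipoic acid synthesis, had the largest difference of the members. It was at 2.45, 4.34 and 5.52 CPM in saline and 3.71, 7.77 and 9.71 CPM in MCC950 libraries. Of 8 MCC950 libraries 6 exceeded the saline range, and the lowest 2 lay within it. The log2 fold change was 0.82 ± 0.20 (1.77-fold, adjusted p = 0.0106).

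Of the 19 accessory subunits of the membrane arm 18 were higher, with log2 fold changes of all 19 between 0.32 and 0.69. Ndufb2 was at 2.78, 4.66 and 5.56 CPM in saline and 5.42, 7.1 and 8.06 CPM in MCC950 libraries, with 6 of 8 above the saline range (0.69 ± 0.15, 1.62-fold, adjusted p = 0.00724). Ndufc1 was at 3.15, 4.55 and 4.91 CPM against 4.89, 6.67 and 7.57 CPM, and 7 of 8 MCC950 libraries were above the saline range (0.56 ± 0.15, adjusted p = 0.0149). Ndufb3 and Ndufb4 followed with 0.56 ± 0.13 and 0.52 ± 0.13 (adjusted p = 0.0101 and 0.0104). Ndufa8 was the membrane arm subunit that did not pass (0.39 ± 0.14, adjusted p = 0.0539), and its 95% interval ran from 0.11 to 0.68.

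Of the 8 assembly factors 5 were higher: Ndufaf1, Ndufaf2, Ndufaf4, Ndufaf5 and Ndufaf8. Ndufaf4 was at 13.8, 17.4 and 20.8 CPM with MCC950, above the saline range in 6 of 8 libraries (0.48 ± 0.12, adjusted p = 0.0121). It was the member lower with age and higher with MCC950, and these comparisons share the saline libraries. Ndufaf2, which takes part in the last steps of assembly, lay at the threshold (0.34 ± 0.12, adjusted p = 0.0499). Ndufaf3, Ndufaf6 and Ndufaf7 did not pass, with log2 fold changes of 0.18, 0.40 and 0.12 and 95% intervals from -0.01 to 0.38, from 0.03 to 0.76 and from -0.05 to 0.30. Ndufaf7, a methyltransferase, was at 8.39, 9.24 and 9.98 CPM in saline and 8.42, 10.1 and 11.2 CPM in MCC950 libraries.

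Of the 7 other Nduf names 6 were higher. Ndufa4, named for complex I and now assigned to complex IV, was at 28, 31.6 and 39.2 CPM in saline and 33.1, 43.2 and 58.8 CPM in MCC950 libraries (0.47 ± 0.14, adjusted p = 0.0225). Ndufa4l2 did not pass (0.12 ± 0.23, adjusted p = 0.753), and its 95% interval ran from -0.35 to 0.60. The remaining 5 were copies, described below. Of these, Ndufb4b (0.53 ± 0.115, adjusted p = 0.00621) and Ndufb4c (0.48 ± 0.11, adjusted p = 0.00967) were among the 10 members with the largest differences.

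**Figure D3:**
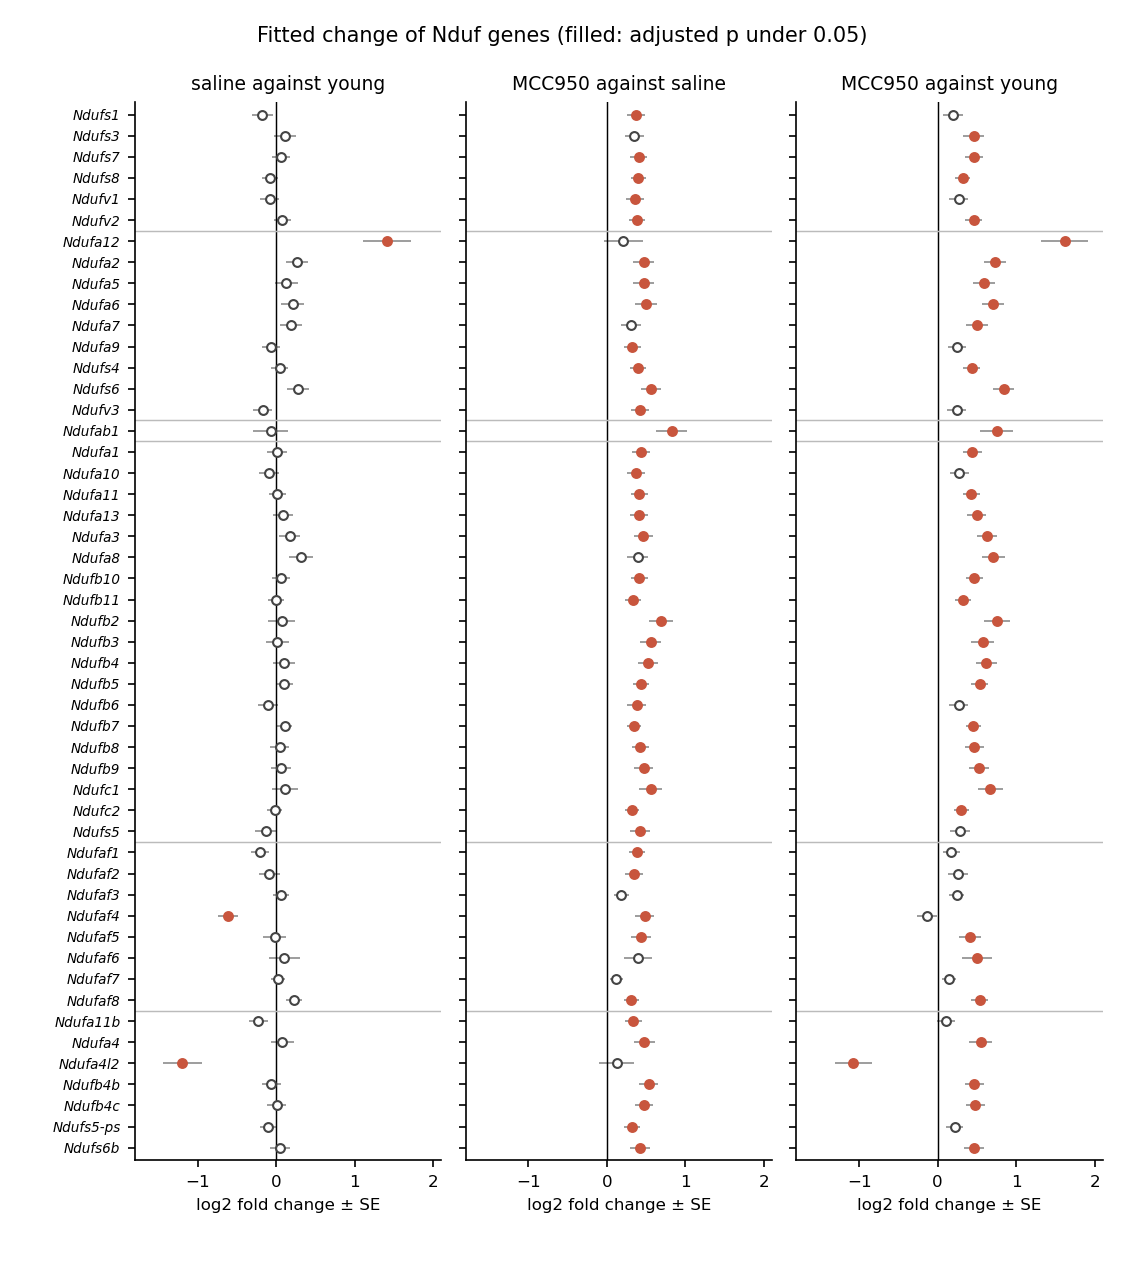
Fitted log2 fold change ± SE of the Nduf genes shown by name in the 3 comparisons, with filled points for members past the threshold (adjusted p under 0.05); lines part core, matrix arm, both-arm and membrane arm subunits, assembly factors and other names. Points scatter around 0 with age except Ndufa12, Ndufaf4 and Ndufa4l2, and all lie above 0 for MCC950 against saline.

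Other genes of the respiratory chain gave the setting for this difference. Of 12 further complex I assembly factors without an Nduf name 5 were higher with MCC950 and 0 lower (median 0.32). Of 45 nuclear genes of complexes II to V that were tested 32 were higher and 0 lower, with a median of 0.39, next to 0.41 for the complex I subunits. The 7 complex I subunits of the mitochondrial genome went the other way: 6 were lower, 0 higher, and the median was -0.85. Their summed level was 176701 to 389030 CPM in saline and 104131 to 181384 CPM in MCC950 libraries. Of 12 regulators of mitochondrial genes 1 was higher and 1 lower, with a median of 0.01.

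Markers of the proximal tubule were higher with MCC950 in the same libraries. All 12 had log2 fold changes above 0, 6 passed the test, and the median was 0.82. Their summed level was 2183 to 5274 CPM in saline and 3152 to 9515 CPM in MCC950 libraries. Their mean level was 7.24 ± 0.488 (SD, n = 7) in saline and 8.10 ± 0.443 (SD, n = 8) in MCC950 libraries on the log2 CPM scale, a difference of 0.857 (exact two-sided permutation test, p = 0.00497, adjusted p = 0.0112 over 9 tests). Of the 15 podocyte markers 6 were higher with MCC950, with a median of 0.48 and summed levels of 460 to 747 CPM. Of the endothelial markers 3 of 9 were lower (median -0.23), and of the loop of Henle and distal tubule markers 2 of 8 (median -0.10). No collecting duct, mesangial and smooth muscle, macrophage, T cell or B and plasma cell marker passed the test in either direction.

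The libraries in which subunits were high were largely those in which proximal tubule markers were high. MCC950 replicates 1 and 5 had subunit medians of 5.20 and 5.23 on the log2 CPM scale and proximal tubule means of 8.60 and 8.45, whereas MCC950 replicate 7 had 4.57 and 7.22. Saline replicate 4 had the lowest values of its group in both, 4.19 and 6.51. Young replicate 1 had a proximal tubule mean of 8.46 with a subunit median of 4.60, below that of 7 MCC950 libraries. With the proximal tubule mean as a covariate, 0 of 51 members passed and the subunit median went from 0.41 to 0.14. The median over all genes tested in that fit was 0.03, and the share of all genes called in it is not given here. That covariate ran from 6.51 to 7.84 in saline and from 7.22 to 8.60 in MCC950 libraries. It differed between the groups, so the fit can tell marker level from group only in part. In that fit the log2 difference was 0.61 for Ndufab1 (adjusted p = 0.154) and 0.23 for Ndufs6 (adjusted p = 0.248). With the podocyte marker mean as a covariate 46 members were higher and the subunit median was 0.54. The share of mitochondrial counts also differed, at 56.4 ± 4.46% with MCC950 against 69.6 ± 5.32% with saline (exact two-sided permutation test, p = 0.000622). The part of these measures in the difference of the Nduf genes was not tested.

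**Figure D4:**
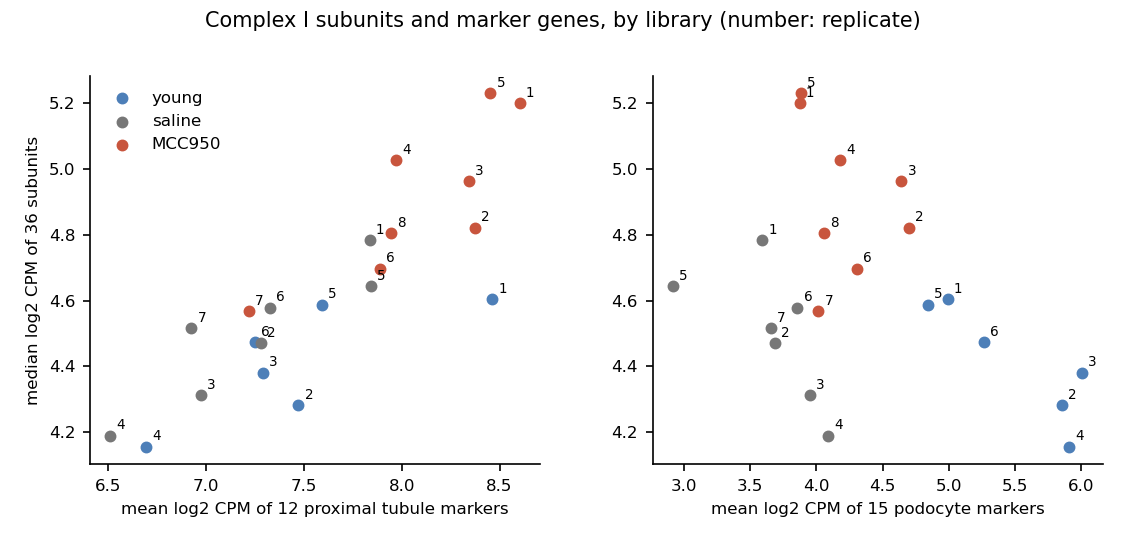
Median log2 CPM of the 36 complex I subunits in each library against the mean log2 CPM of 12 proximal tubule markers (left) and of 15 podocyte markers (right), coloured by group and numbered by replicate. MCC950 replicates 1 and 5 are highest in subunits and among the 3 highest in proximal tubule markers, saline replicate 4 and young replicate 4 are lowest in both, and no such order is seen across groups on the right.

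The third comparison set MCC950-treated mice of 19.5 months against young mice, and it shares its MCC950 libraries with the second comparison and its young libraries with the first. Of 51 members 35 were higher and 1 lower (Ndufa4l2), against 21.8% higher, 16.5% lower and 38.3% in either direction among all genes tested. The median log2 fold change was 0.46 over the members, 0.47 over the subunits and 0.25 over the assembly factors, against 0.08 over all genes. By role, 4 of 7 core subunits, 7 of 9 in the matrix arm, 16 of 19 in the membrane arm, 3 of 8 assembly factors and Ndufab1 were higher.

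Every MCC950 library was above every young library in 4 members, Ndufa12, Ndufs6, Ndufa2 and Ndufaf8, as for 3.28% of all genes, and in no member was every MCC950 library below every young library, as for 4.67%. Ndufa12 was at 0.512, 0.917 and 1.24 CPM with MCC950 (1.62 ± 0.30, 3.07-fold, adjusted p = 0.000368). Ndufs6 was at 5.44, 5.88 and 7.86 CPM in young libraries against the MCC950 levels above (0.84 ± 0.14, 1.79-fold, adjusted p = 9.89e-05). Ndufa2, a matrix arm subunit with a thioredoxin-like fold, was at 14.7, 19.2 and 23.3 CPM in young and 25, 30.2 and 40 CPM in MCC950 libraries (0.73 ± 0.14, adjusted p = 0.000417). The other members with the largest differences were Ndufb2 (0.76), Ndufab1 (0.75), Ndufa8 (0.71), Ndufa6 (0.71), Ndufc1 (0.67), Ndufa3 (0.63) and Ndufb4 (0.62), all with overlapping groups.

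Ndufa4l2 stayed low with MCC950, at 0.636, 1.1 and 1.62 CPM (-1.07 ± 0.24 against young, adjusted p = 0.00143), and no MCC950 library was above the young range. Ndufaf4 was at 13.8 to 20.8 CPM with MCC950 and 12.6 to 22.4 CPM in young libraries, with a log2 fold change of -0.14 ± 0.12 (adjusted p = 0.398). By the call rule of the study, which called 8.37% of all genes, Ndufa12 and Ndufa4l2 were the members called. With the podocyte marker mean as a covariate, none of the members was called and the subunit median was 0.13. That mean was 3.87 to 4.70 in MCC950 and 4.84 to 6.01 in young libraries on the log2 CPM scale. The groups did not overlap in it, so the fit can hardly tell marker level from group. With the proximal tubule mean as a covariate 25 were higher and 1 lower, the subunit median was 0.28, and Ndufab1 did not pass (0.57, adjusted p = 0.0753).

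Markers of several cell types differed from young libraries in this comparison too. Of the proximal tubule markers 6 of 12 were higher (median 0.57), whereas 14 of 15 podocyte, 9 of 9 endothelial, 7 of 7 mesangial and smooth muscle and 8 of 8 collecting duct markers were lower. Of the loop of Henle and distal tubule markers 3 of 8 were lower and 1 higher. Immune markers were higher in 1 of 7 for macrophages, 0 of 5 for T cells and 2 of 6 for B and plasma cells. All 7 complex I subunits of the mitochondrial genome were lower (median -1.04). The part of these measures in the difference was not tested.

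Of the members 5 carry names of copies of multi-exon Nduf genes, and they held more counts than their parents in 21 of 21 libraries. Ndufs6b held 42083 counts over all libraries against 9426 for Ndufs6, a ratio of 4.46 with a range of 3.94 to 7.19 by library. Ndufa11b held 38970 against 10908 for Ndufa11 (3.57), and Ndufs5-ps held 33371 against 10976 for Ndufs5 (3.04). Ndufb4b held 31289 and Ndufb4c 33299 against 9336 for Ndufb4 (3.35 and 3.57). Divided by the length of the transcripts in GENCODE, the ratios were 7.29 for Ndufs6b, 4.59 for Ndufa11b and 8.88 for Ndufb4c.

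For 3 of the copies, Ndufs6b, Ndufa11b and Ndufb4c, GENCODE gives a transcript of 1 exon, and these were aligned to the spliced transcripts of their parents. Ndufb4b and Ndufs5-ps were not aligned. The sequences are shown across an exon junction to let parent and copy be read side by side. Ndufs6b matched Ndufs6 in 336 of 348 aligned bases (96.6%), Ndufa11b matched Ndufa11 in 402 of 424 (94.8%), and Ndufb4c matched Ndufb4 in 390 of 390. Each of the 3 ran through all junctions of its parent, 3 in Ndufs6, 3 in Ndufa11 and 2 in Ndufb4. Each stretch below holds 60 coding bases centred on a junction, 5′ to 3′, with the last base of one exon and the first base of the next in capitals in the parent, and the bases that differ from the parent in capitals in the copy.
Ndufs6, exons 1 and 2, chr13:73328339-73328542 and chr13:73327416-73327469, minus strand: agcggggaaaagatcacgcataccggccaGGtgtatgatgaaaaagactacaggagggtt
Ndufs6b, chr7:81161397-81161744, minus strand: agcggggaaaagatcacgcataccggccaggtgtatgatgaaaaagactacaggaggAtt
Ndufa11, exons 1 and 2, chr17:56717767-56717942 and chr17:56721035-56721127, plus strand: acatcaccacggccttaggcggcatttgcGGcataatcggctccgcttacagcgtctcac
Ndufa11b, chr16:22053510-22053933, plus strand: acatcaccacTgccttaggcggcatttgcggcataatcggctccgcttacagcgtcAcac
Ndufb4, exons 1 and 2, chr16:37654180-37654453 and chr16:37649014-37649160, minus strand: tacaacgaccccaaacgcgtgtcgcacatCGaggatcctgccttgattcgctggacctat
Ndufb4c, chr15:73809507-73809896, minus strand: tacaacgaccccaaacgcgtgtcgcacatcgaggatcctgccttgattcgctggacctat
In these stretches Ndufs6b differed from its parent at 1 of 60 bases, Ndufa11b at 2 and Ndufb4c at 0. The coordinates are those of GENCODE on GRCm38.

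A read across such a junction is a continuous match to the copy and a split match to the parent, and the aligner the authors used, Bowtie2, does not split reads over introns. How reads with several matches were counted is not given in the sources used here, so the division of counts between a parent and its copy is uncertain. The sum of both does not depend on how the counted reads were divided between them. Summed with their copies, the families were higher with MCC950 than with saline for Ndufb4 (0.50 ± 0.11, adjusted p = 0.00752), Ndufs6 (0.45 ± 0.12, adjusted p = 0.0165), Ndufa11 (0.35 ± 0.10, adjusted p = 0.0249) and Ndufs5 (0.35 ± 0.10, adjusted p = 0.0231). Ndufs6 alone had a larger value, 0.56, than the family sum. Against young libraries the summed Ndufs6 family was higher by 0.53 ± 0.13 (adjusted p = 0.00266), compared with 0.84 for Ndufs6 alone, and the summed Ndufa11 family did not pass (0.18 ± 0.11, adjusted p = 0.207).

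The ratio of copy to parent was not the same in all groups. For Ndufs6b over Ndufs6 the median ratio was 5.49 in young, 4.59 in saline and 4.24 in MCC950 libraries, and for Ndufa11b over Ndufa11 it was 4.30, 3.57 and 3.34. In the same order it was 3.70, 3.22 and 3.25 for Ndufb4b, 3.73, 3.61 and 3.47 for Ndufb4c, and 3.18, 3.18 and 2.91 for Ndufs5-ps. Young libraries also had the widest range, up to 7.19 for Ndufs6b. These ratios were not tested between groups.

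**Figure D5:**
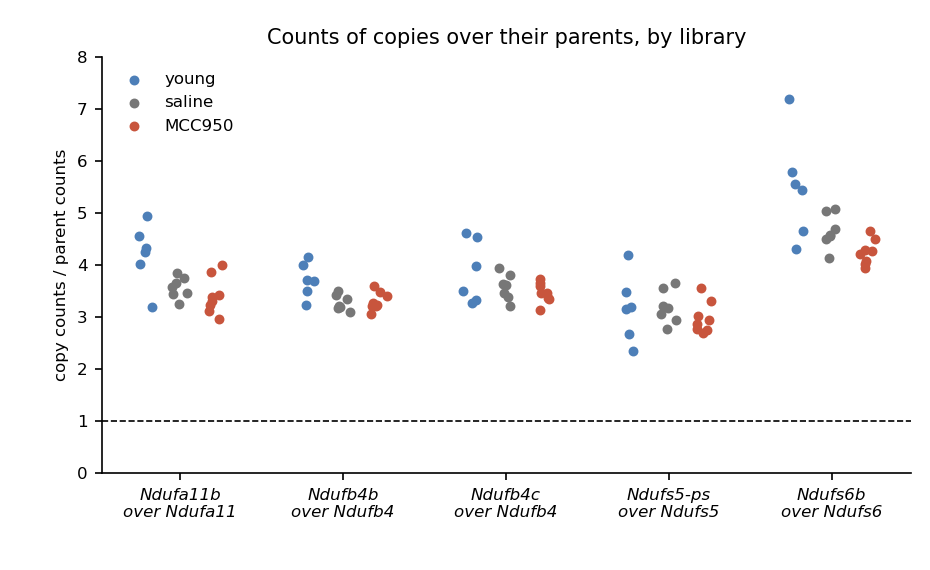
Counts of each copy divided by the counts of its parent in each library, coloured by group; the dashed line marks equal counts. Every ratio lies above 1, and the highest ratio of each copy is in a young library.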

How the data were processed

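mRNA-seq libraries of podocyte fractions from individual mice were grouped by their labels (6 young, 7 saline and 8 MCC950). The authors trimmed reads with Trim Galore, aligned them to mm10 (GRCm38) with Bowtie2 and counted them per gene with featureCounts. The deposited tables hold whole read counts per Entrez Gene number, with no normalization. Tool versions, the annotation release and the strand setting are not given in the sources used here. The authors' normalized table lacks saline replicate 6 and was not used. The counts of that library carry a later dataset number in their header. It was kept because its labels put it in the saline group. Without it 33 members were higher in MCC950 than in saline, against 43 with it.

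Gene numbers were named with RefSeq (25275 of 27179) and GENCODE (18), and 1886 stayed without a name. The quasi-likelihood test of edgeR 4.0.16 was run in R 4.3.3 (TMM scaling, filterByExpr by group, all 21 libraries in 1 fit) on the counts of 16377 genes, which all 51 members passed into. P-values were adjusted by Benjamini-Hochberg over all genes tested, with a threshold of 0.05. Standard errors were the absolute log2 fold change over the root of F. Single values per library were compared with exact permutation tests in scipy 1.17.1. P-values set differences between groups against the spread between libraries. Each library came from an individual mouse, so that spread also holds differences of cell isolation and library preparation.

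The fit was tested on simulated counts of 16287 genes for the comparison of saline with young. Of 200 genes changed 2-fold 178 were recovered, and 9 unchanged genes were called. The changed genes were drawn only from those with higher average levels. Changes smaller than 2-fold, such as those of the members between MCC950 and saline, were not simulated.

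Members, gene lists and tests were chosen with earlier results of these data known. Genes named for their fold change were, in each comparison, the 10 called members with the largest change in each direction. Core subunits, assembly factors and other Nduf names were described by level, some of them also with a fold change and a test. Ndufa2, Ndufa7 and Ndufa8 and the copies were also named after their values were seen. A member enters the counts and medians but is not reported here by name. Alternatives were DESeq2 1.42.0, other scaling and filters, mitochondrial genes left out, fits of 2 groups, a replicate block, marker covariates, equal depth, the call rule of the study and each library left out.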

Additional observations from a re-analysis of the deposited data

Results flagged for a closer look

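In 5 of 153 tests of a group's highest or lowest library by Dixon's 95% criterion a library stood apart, and chance alone flags about 5% of such tests. In young libraries, Ndufa4l2 was at 3.84 CPM in replicate 2, with the nearest library at 2.15 CPM. Ndufaf3 was at 3.64 CPM in young replicate 6 (nearest 4.98 CPM), and Ndufaf4 was at 12.6 CPM in the same library (nearest 18.8 CPM). Ndufaf6 was at 0.765 CPM in young replicate 4 (nearest 1.16 CPM). Ndufs1 was at 52.5 CPM in saline replicate 1 (nearest 43.6 CPM). The calls of Ndufaf4 and Ndufa4l2 with age were kept when each library was left out in turn.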

How the results depend on the processing

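No count of calls moved from one direction to the other, and no named member changed sign, under the alternatives run. Apart from the call rule of the study, shares of all genes called under the alternatives are not given here. The subunit median with age, near 0, turned negative with the podocyte covariate (-0.39) and without young replicate 2 (-0.0004). With the proximal tubule marker mean as a covariate, members higher in MCC950 than in saline went from 43 to 0 with a subunit median of 0.14, and members higher with age from 1 to 4. Saline and MCC950 libraries differed in the proximal tubule mean, with overlap, so that fit can tell marker level from group only in part. With the podocyte marker mean as a covariate, age gave 0 higher and 0 lower with a subunit median of -0.39, and MCC950 against young gave 0 higher and 0 lower with a subunit median of 0.13. In both comparisons the groups did not overlap in that covariate, so these fits can hardly tell marker level from group. For MCC950 against young the proximal tubule covariate gave 25 higher with a subunit median of 0.28. By the call rule of the study, 1 member was lower with age, 0 were higher in MCC950 than in saline and 1 was higher in MCC950 than in young. With at least 10 counts in every library, 0 members were higher with age, because Ndufa12 was not tested. The cause of the covariate changes was not tested.

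Leaving out 1 library at a time gave 1 to 1 higher and 2 to 3 lower with age (subunit median -0.0004 to 0.10), 24 to 45 higher and 0 to 0 lower for MCC950 against saline (0.35 to 0.45; 24 without saline replicate 4, 28 without saline replicate 3 and 28 without MCC950 replicate 1), and 30 to 43 higher and 1 to 1 lower for MCC950 against young (0.39 to 0.53). Members higher in MCC950 than in saline numbered 45 by DESeq2, 41 with RLE scaling and 29 at equal depth. With copies added to their parents, an alternative chosen after seeing the data, 38 of 46 were higher.

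Replicate numbers were not used to pair the libraries in the main fit. Correlations of same-numbered libraries ran from -0.061 to 0.35 with age. They ran from -0.14 to 0.33 for MCC950 against saline and from -0.013 to 0.40 for MCC950 against young. Libraries of different numbers were not correlated as a reference, so these values cannot decide whether the numbers pair libraries. The replicate block gave 1 higher and 2 lower with age, 45 higher for MCC950 against saline and 43 for MCC950 against young.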
